A study of Sus scrofa with 12 samples.

Results

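The ratio of FE and SE embryos was followed in pools of XX pig embryos recovered on Day 9. These pools were measured on 6 of the study's 12 arrays, which make up 3 of its 6 biological sets, and they were chosen by the sex and set number given in the labels. FE sows were inseminated at an oestrus that was induced while they were lactating, and SE (skip-a-heat) sows came into the same oestrus but were inseminated at the next one. All sows were in their first parity, each group had 3 of them, and 5 female embryos of 1 sow, sexed by PCR, made 1 pool. RNA of a pool was amplified in 1 round and labelled with Cy3 or Cy5, and each array set an FE pool against an SE pool. The same 2 pools were hybridised again with dyes exchanged, so a set has a pair of arrays that count as 1 replicate, and n is 3 sets. The male pools came from the same sows and had the same layout. They were used for comparison and, in a shared fit, for the estimate of the spread between sets.

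At this stage the pig blastocyst has shed its zona pellucida and is a hollow sphere about to elongate. Its outer trophectoderm will attach to the uterus, the epiblast forms the embryo itself, and the hypoblast lines the inside as the early yolk sac. Expanding trophectoderm is known for a high demand for respiration, protein synthesis and sterols, and for secreting signals such as interleukin 1 beta and, later, interferons to the uterus.

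The values were log ratios, read as log2, so that 1 is a 2-fold difference, and a set ratio averages the first array with the dye-swap array after turning the sign of the swap. The numerator channel was not given in the sources used here, so a positive ratio means the sign that the first arrays have and does not say whether the FE or the SE embryos were higher. All 12 arrays had values for 43769 probes, of which 18110 named 11908 genes and 25659 had no gene symbol. The SD over probes was 0.364 to 0.456 per female array, and the arrays' number limits the precision. Before turning, r over probes between both arrays of a pair was -0.303 in female set 1, -0.461 in set 2 and -0.766 in set 3, so that set 1 agreed least between its arrays. Female sets 1 and 2 lay on slide 2, and female set 3 lay on slide 3 beside male set 3. Of the Y-linked genes on the list, EIF1AY alone was measured, with ratios of 0.05, -0.53 and -0.72 at 1 probe and 0.20, 0.05 and -0.10 at the other in female sets 1, 2 and 3. A ratio is not a level, so these values do not test the sexing, and XIST was not analysed here.

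The question put to the female sets was whether gene expression differed between embryos of the FE and SE matings. No gene passed the test. Limma found 0 of 43769 probes (0%) with an adjusted p under 0.05, the lowest value being 0.408. Before adjustment, 2107 probes (4.81%) had p under 0.05, 1068 of them positive and 1039 negative, where 2188 would be expected by chance. The median SD between the 3 female sets was 0.17 in log2 units, and the median 95% confidence interval of a mean ratio extended 0.26 to either side. Intervals that stayed inside 2-fold in both directions were found for 92.0% of probes, and inside 1.5-fold for 75.1%. These pools held all cell types of the embryo, so fewer cells of a type and less RNA per cell cannot be told apart.

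Each mean rests on 3 female sets, but its p and interval take the spread between sets from all 6 sets of both sexes. Pools of the same sows entered both sexes. With the 3 female sets alone, limma called 0 probes, with a smallest adjusted p of 0.156. Without turning the sign of the dye-swap arrays, the main test would call 6824 probes, so the result rests on the swap roles the labels give. The 20 named genes of smallest p had limma adjusted p between 0.408 and 0.970, and they are given as values. Of these, 11 were positive and 9 negative, and 17 had the same sign on all 6 female arrays, which choosing by a small p favours: 54.3% of the probes with an unadjusted p under 0.05 had it too. MAN2C1, a cytosolic mannosidase that trims free glycans, had ratios of 0.77, 1.06 and 1.00 in female sets 1, 2 and 3, with an interval of the mean of 0.75 to 1.14. Over its 6 other probes the median mean was 0.11 and the highest 0.45, so the ratio belonged to 1 of 7 probes. TCOF1, the treacle protein that helps to transcribe ribosomal RNA genes, had 0.91, 1.04 and 1.25, and its second probe had a mean of 1.14. For TCOF1 both probes and all 3 sets thus lay close together.

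The negative genes included AGR2 and SEC61A1, both on the list of folding in the endoplasmic reticulum. AGR2, a disulfide isomerase of secretory epithelia, had -0.60, -0.55 and -0.60, the smallest spread of the 20 genes (SD 0.03). Its arrays lay further apart than its set ratios, with -0.34 and -0.77 in set 2 and -0.49 and -0.71 in set 3. Choosing by a small p also favours a small spread between sets. SEC61A1, the channel through which new proteins enter the endoplasmic reticulum, had -0.56, -1.11 and -1.63 at 1 of its 2 probes, where the sets differed from one another (limma adjusted p = 0.00218 between sets), and -0.16, -0.04 and -0.80 at the other. TMEM38B, a cation channel of the reticulum's membrane, had -0.69, -0.83 and -0.83. Every female set was negative at each of these probes. B4GALT1, a galactosyltransferase of the Golgi, had -0.49, -0.46 and -0.58 at this probe and a mean of 0.14 at its other probe.

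Metabolic genes were on both sides. TALDO1, an enzyme of the pentose phosphate pathway, had 0.44, 0.72 and 0.71, with 0.38 at its second probe. SUCLG2, a subunit of succinyl-CoA ligase in the citric acid cycle, had 0.49, 1.11 and 1.04, with set 1 lower than the others, and its 2 other probes had a median of 0.05. PSPH, which makes serine, had -0.71, -0.48 and -0.40, and its 3 other probes were negative too, with a median of -0.54. GSTM3, a glutathione transferase, had -1.05, -1.49 and -0.76, while its second probe had -0.05. The remaining 10 genes were TCEA1 (mean -0.80), RNFT1 (-0.83) and TLR1 (-0.64) on the negative side, and SETD5 (0.73), ATP5SL (0.94), KCNS3 (0.56), TPCN2 (0.56), ATP5G3 (0.56), INTS3 (0.51) and RPL30 (0.52) on the positive side, each a value of 1 probe. A second probe gave -0.44 for TCEA1, 0.10 for TLR1, 0.60 for SETD5 and 0.27 for TPCN2, and the 4 other probes of ATP5SL ranged from -0.06 to 0.26.

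In 3 of the 20 genes the 2 arrays of a set disagreed in sign. ATP5G3, the ring subunit of mitochondrial ATP synthase, had 1.72, 1.43 and 1.19 on the first arrays of sets 1, 2 and 3, but -0.82, -0.02 and -0.13 on the turned swap arrays. The close set means of 0.45, 0.71 and 0.53 therefore came from first arrays that were high and swap arrays at or below 0. RPL30, a protein of the large ribosomal subunit, had 1.13, 0.61 and 0.95 on the first arrays and -0.03, 0.10 and 0.37 on the swap arrays, and means of 0.24 and 0.25 at its 2 other probes. INTS3, of the Integrator complex, had arrays at -0.28 and 1.72 in set 3.

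**Figure D1:**
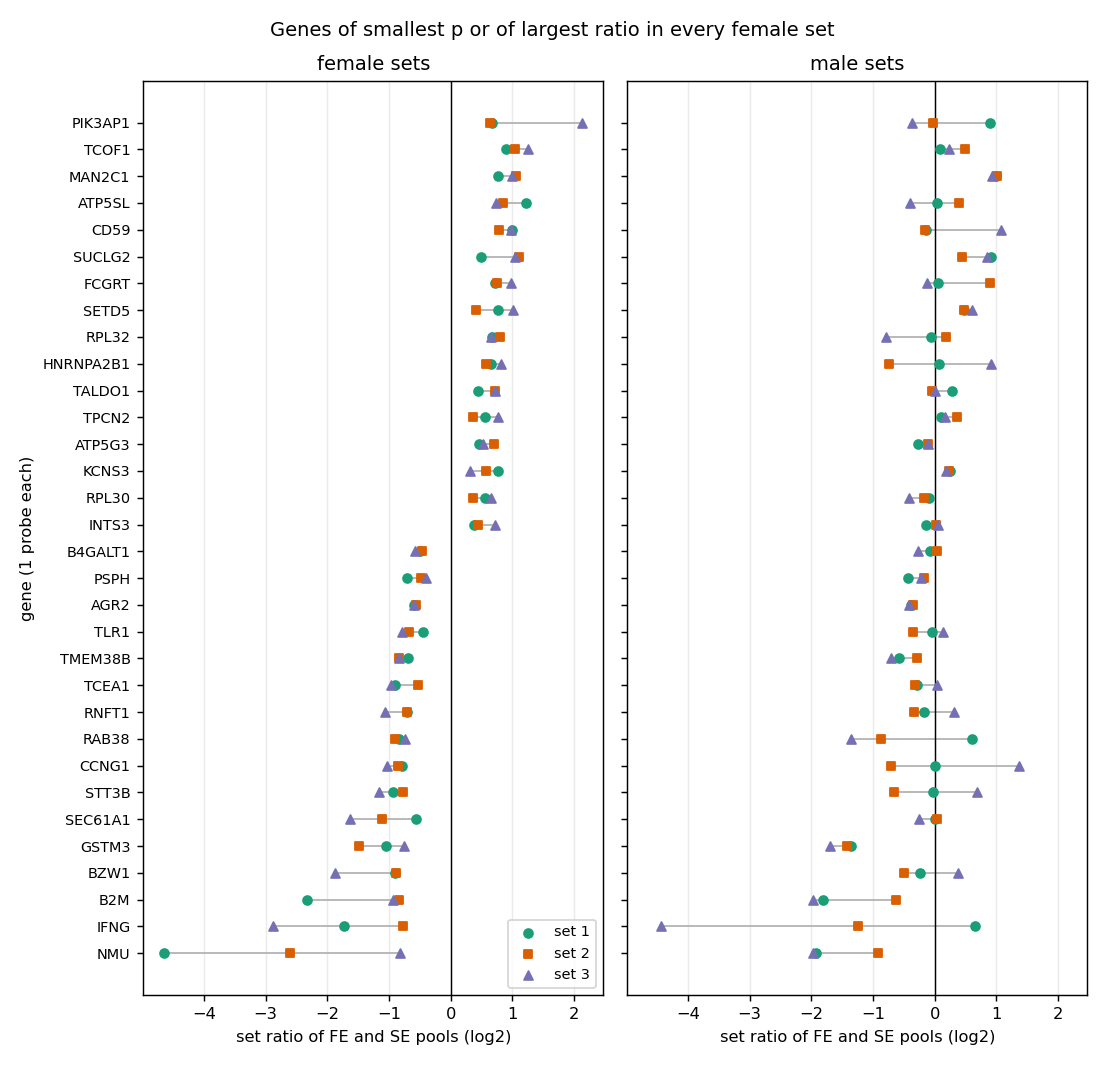
Ratios of the FE and SE pools (log2, x axis) in female sets (left) and male sets (right) for the 20 genes of smallest p and the genes of largest ratio in every female set, 1 probe each, sorted by the female mean. Points are sets and grey lines join the lowest and highest set: NMU spans -4.65 to -0.82 in the female sets, while AGR2 spans -0.60 to -0.55.

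A second way to choose genes was by the smallest of the 3 set ratios, among probes with 1 sign in all female sets. Such agreement in sign was found for 10665 probes (24.4%), 5159 positive and 5506 negative. NMU, the gene of the neuropeptide neuromedin U, had -4.65, -2.61 and -0.82, a mean of -2.69 with an SD of 1.92. Every array of every female set was negative for NMU, and the sets differed beyond the spread between arrays (limma adjusted p = 6.61e-08 between sets). IFNG, the interferon gamma that pig trophectoderm makes around attachment, had -1.74, -0.78 and -2.88. B2M, the small invariant chain of class I histocompatibility complexes, had -2.34, -0.84 and -0.93. Set 1 was lowest for NMU and B2M and set 3 for IFNG, and the intervals of the means were -4.28 to -1.11 for NMU, -3.99 to 0.39 for IFNG and -2.26 to -0.48 for B2M. These intervals are not adjusted for the choice of genes, which favours means far from 0. None of the 3 genes passed the test of the female ratio after adjustment.

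Less extreme and less spread were genes of the cell cycle, protein synthesis and glycosylation. CCNG1, a cyclin that responds to p53, had -0.80, -0.85 and -1.03, and its second probe had -0.45. STT3B, a catalytic subunit that attaches glycans to new proteins, had -0.94, -0.77 and -1.17, with -0.59 at its second probe. RAB38, a small GTPase of lysosome-related organelles, had -0.84, -0.91 and -0.74. These 3 genes had no difference between the female sets past the threshold (limma adjusted p of 0.461, 0.118 and 0.677). BZW1, a regulator of translation start, had -0.90, -0.89 and -1.87, and its 4 other probes ranged from -0.85 to 0.81.

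On the positive side, CD59, which shields cells from complement, had 0.99, 0.79 and 0.99. FCGRT, the Fc receptor that carries antibodies across epithelia, had 0.72, 0.75 and 0.97, although its 4 other probes had a median of 0.10. HNRNPA2B1, an RNA-binding protein of the nucleus, had 0.66, 0.58 and 0.81, and its 4 other probes lay between 0.51 and 0.86. HNRNPA2B1 was therefore positive at each of its 5 probes. PIK3AP1, an adaptor of lipid kinase signalling, had 0.67 and 0.63 in sets 1 and 2 but 2.14 in set 3, with means of -0.03 and 0.22 at its 2 other probes. The ribosomal gene RPL32 had 0.66, 0.81 and 0.66, from first arrays of 1.66, 1.38 and 1.17 and swap arrays of -0.33, 0.23 and 0.16, while its second probe had 0.23, 0.67 and -0.74. The limma adjusted p was 0.999 for CD59, FCGRT, HNRNPA2B1, PIK3AP1, RPL32, NMU, IFNG, B2M, CCNG1, STT3B, RAB38 and BZW1.

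The largest ratios shared by all female sets fell on probes without a gene symbol. A ratio over 2-fold in every female set was found for 35 probes, 34 positive and 1 negative, and 0 of the 35 carried a symbol, against 41.4% of all probes. Over the 34 positive probes the median was 1.66 in female set 1, 2.02 in set 2 and 2.90 in set 3. In the male sets the same probes had medians of 1.55, 0.32 and 2.26, so male set 2 stood apart. Probe 20545 had 3.09, 2.97 and 3.28 in the female sets and 3.11, 0.85 and 2.50 in the male sets. The 1 negative probe, 24661, had -1.12, -1.001 and -1.75 in the female sets. At 1.5-fold in every female set there were 100 positive probes, 8 of them named, and 39 negative probes, 20 of them named.

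Genes were also read in groups, with the share of named probes at unadjusted p under 0.05 (837 of 18110, or 4.62%, with 298 positive and 539 negative) as the background for each list. The group with the highest share was oxidative phosphorylation, the mitochondrial chain that makes ATP, where 15 of 77 probes (19.5%) had an unadjusted p under 0.05 and all 15 were positive. The smallest limma adjusted p among these probes was 0.924. Of the 45 genes, 36 had a positive mean, against 5729 of all 11908 named genes. All 3 female sets were positive for 18 of the 45 and negative for 0, against 1265 and 1751 of all named genes. The median gene ratio was 0.20 in set 1, 0.53 in set 2 and 0.10 in set 3, beside -0.01, 0.00 and -0.02 over all named genes.

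Within the chain, the 11 genes of ATP synthase had a median of 0.38, with 10 positive, and the 5 genes of cytochrome c oxidase had a median of 0.42, with 5 positive. Complex I, the entry point of electrons from NADH, had 17 positive and 8 negative genes and a median of 0.24, but -0.12 in set 3. NDUFV1, a catalytic subunit of complex I, had 0.42, 0.80 and 0.60, and NDUFA10, of its membrane arm, had 0.68, 1.56 and 0.38 at 1 of its 3 probes, with all 6 arrays positive for both. The mean over the probes of NDUFA10 was 0.55, 1.34 and 0.10 in the 3 sets. COX6C, of cytochrome c oxidase, had 0.13, 0.97 and 1.02 at its probe of smaller p, and UQCRB, of complex III, had means over its 3 probes of 0.00, 0.58 and 0.99. Set 1 was thus near 0 for COX6C and UQCRB and set 3 was high, while NDUFA12, with 0.88, 1.69 and -0.54, was negative in set 3.

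Part of this pattern depended on which array of a set was read. The median over the 45 genes was 0.21, 0.70 and 0.09 on the first arrays of sets 1, 2 and 3, and 0.10, 0.43 and -0.01 on the turned swap arrays. Of the 15 probes, 5 had the same sign on all 6 arrays, those of NDUFV1, NDUFA10, NDUFA1 and 2 of the 3 probes of NDUFA6. SLC25A3, the phosphate carrier that feeds ATP synthase, had 1.38, 0.94 and 1.05 on the first arrays and -0.70, -0.21 and 0.02 on the swap arrays at 1 of its 3 probes, and means of 0.26 and 0.12 at the others. Without female set 2 the median fell to 0.14, against 0.29 with all 3 sets.

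Cytosolic ribosomal proteins showed the dependence on the array more plainly. Over 50 genes the medians were 0.31, 0.51 and 0.04 on the first arrays of sets 1, 2 and 3, but -0.14, 0.14 and -0.32 on the swap arrays. The unadjusted threshold was passed by 7 positive probes and 1 negative probe of 85 (9.41%), and 0 of these 8 had 1 sign on all 6 arrays. RPS24, of the small subunit, had means over its 3 probes of -0.14, 1.55 and 1.16, and RPS28 had means over its 2 probes of 0.66, 1.17 and 0.19. Whether labelling set these differences between arrays was not tested.

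In the citric acid cycle, which feeds electrons into that chain, 5 of 30 probes (16.7%) had an unadjusted p under 0.05, all positive and with 1 sign on all 6 arrays. They belonged to 3 genes. CS, the citrate synthase that opens the cycle, had gene means over its 3 probes of 1.22, 0.32 and 0.46, high in set 1. SUCLG1, the partner subunit of SUCLG2, had 0.29, 0.78 and 0.82, low in set 1. The group as a whole had a median of 0.01 over 17 genes, with 9 positive and 8 negative, and IDH1, which makes cytosolic NADPH, had -1.99 in set 3.

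Protein folding in the endoplasmic reticulum ran the other way. Of 48 probes, 8 (16.7%) had an unadjusted p under 0.05, all negative. A negative mean was found for 22 of the list's 29 genes, against 6179 of all 11908 named genes. The medians were -0.16 in set 1, 0.06 in set 2 and -0.35 in set 3, so set 2 did not share the sign. Besides AGR2 and SEC61A1, ERP44, a thiol protein that retains cargo, had gene means of -0.47, -0.23 and -0.88, and CANX, the membrane chaperone calnexin, had -0.29, -0.23 and -0.50. ERP44 and CANX were negative in every set. HSPA5, the chaperone also called BiP, had -0.62, 0.54 and -0.65, and the co-chaperone gene DNAJB9 had -0.75, -0.04 and -0.94.

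Cholesterol synthesis, which supplies sterols for new membranes, had 4 of 27 probes (14.8%) at unadjusted p under 0.05, all negative. A negative mean was found for 9 of its 12 genes, against 6179 of all 11908 named genes. The group medians were -0.14, 0.05 and -0.44 in sets 1, 2 and 3. CYP51, a demethylase of lanosterol, had gene means of -1.56, -0.09 and -1.08, SQLE, which makes the sterol precursor squalene epoxide, had -1.72, 0.40 and -0.87, and HMGCS1, which acts early in the pathway, had -0.57, 0.14 and -1.61. Set 2 was near or above 0 for these 3 genes, whereas sets 1 and 3 were low. Without female set 3 the group median was -0.08, against -0.24 with all sets.

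**Figure D2:**
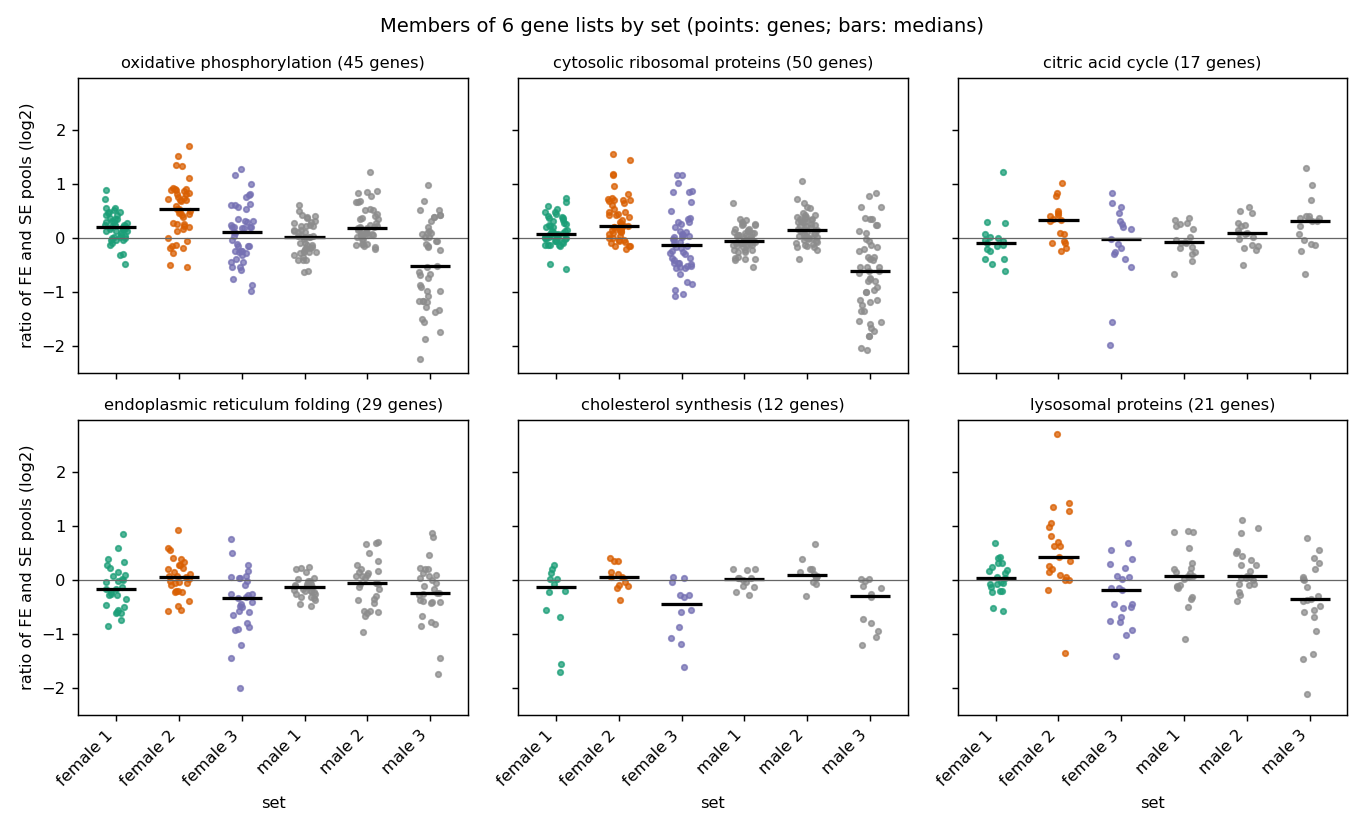
Ratio of the FE and SE pools (log2, y axis) for the measured members of 6 gene lists in each female set and each male set (x axis); a point is the mean over the probes of a gene and the bar is the median over genes. Oxidative phosphorylation has medians of 0.20, 0.53 and 0.10 in the female sets and lysosomal proteins 0.04, 0.43 and -0.18.

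Markers of the embryo's tissues gave no shared shift. Trophectoderm markers had medians of 0.14, 0.17 and -0.22 in sets 1, 2 and 3 and 1 of 40 probes (2.50%) at unadjusted p under 0.05, which was ATP1B1, a subunit of the sodium pump that fills the blastocoel (-0.34, -0.15 and -0.31). GATA3, a transcription factor of the trophectoderm, had 1.18, 1.55 and -0.42, and TFAP2C, another, had gene means of -0.22, -0.63 and 1.55. The 2 factors thus had opposite signs in every set. Hypoblast markers had medians of 0.00, 0.28 and -0.08, and GATA6, a factor that defines this lineage, had -0.09, -0.35 and -0.58, but its arrays in set 1 were 1.15 and -1.33. Epiblast markers had 0 of 23 probes at unadjusted p under 0.05. LIN28A, an RNA-binding protein of pluripotent cells, had 0.70, 0.66 and 0.02, and ZFP42, a pluripotency factor, had -0.40, -0.69 and -0.46.

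Other tissues that could enter a flush were near 0. Uterine epithelium markers had medians of 0.01, 0.04 and -0.07 over 15 genes, and blood cell markers 0.04, 0.00 and 0.02 over 15 genes. LCN2, a secreted lipocalin, was the 1 uterine marker at unadjusted p under 0.05, with 0.06, 0.39 and 0.27, and 0 of 18 blood marker probes reached it. Genes of chromosome X, present in 2 copies in these embryos, had 29 of 636 probes (4.56%) at that threshold, 14 positive and 15 negative, and a median of -0.02 over 454 genes. This share lay at the background of 4.62%. DDX3X, an RNA helicase gene of this chromosome, had means over its 2 probes of -0.44, -0.15 and -0.70 in the female sets, against 0.29, -0.09 and 0.42 in the male sets. It is 1 of the 454 genes, and limma called 0 probes for female minus male, so these values show no difference between the sexes past the threshold.

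In the lists on signalling, transport and gene regulation, CRABP2, which carries retinoic acid to its receptor, had 1.40, 0.42 and 0.90. SLC1A1, a glutamate transporter, had -0.93, -0.59 and -0.92 at 1 of its 2 probes. HDAC2, a histone deacetylase, had -0.81, -0.73 and -0.55, and the translation factor gene EIF4E had -0.70, -0.42 and -1.32 at 1 of its 2 probes. These probes had 1 sign in all 3 female sets and an unadjusted p under 0.05, and none passed after adjustment. Insulin-like growth factor genes had 1 of 27 probes (3.70%) at that threshold, imprinted genes 1 of 35 (2.86%), WNT signalling 1 of 43 (2.33%) and the interferon response 2 of 41 (4.88%). Other lists lay above the background of 4.62%. Conceptus signalling and steroid synthesis had 4 of 41 (9.76%), all negative, and MHC class I and antigen processing 3 of 25 (12.0%). Ribosome biogenesis had 7 of 57 (12.3%), 5 positive and 2 negative.

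The ratio of female embryos was set against that of male embryos in the same fit. Limma found 0 probes (0%) past the threshold for female minus male, with a smallest adjusted p of 0.9997, and 819 probes (1.87%) with an unadjusted p under 0.05. Among the 10 named genes of smallest p, 9 had 1 sign in all 3 male sets opposite to that of the female mean. Choosing by a small p for this difference favours that, and the share over all probes was not counted. PA2G4, a growth regulator that binds ribosomal RNA, had 0.37, 0.37 and 0.96 in female sets 1, 2 and 3, against -0.27, -0.58 and -0.49 in male sets 1, 2 and 3. PABPN1, which binds poly(A) tails in the nucleus, had 0.52, 0.57 and 0.52 in the female sets, against -0.25, -0.03 and -0.59 in the male sets. The 2 other probes of PA2G4 had female means of -0.05 and 0.47, and the other probe of PABPN1 had 0.65. NDRG3 had 0.45, 0.34 and 0.62 in the female sets, against -0.50, -0.27 and -0.11 in the male sets, and its second probe had a female mean of 0.37. The female and male sets did not overlap at these 3 probes, but the list was picked for its p among all probes, which favours this. The share of all probes without overlap was not counted, so whether this is unusual cannot be said. None passed the threshold. On slide 3, which held 1 set of each sex, the difference was in the same direction for PA2G4, PABPN1 and NDRG3. That follows where the sets do not overlap.

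The FE and SE pools of a single set differed in many more probes than the mean of the sets did. In the next tests the error came from how far paired arrays disagreed, so they compare these pools and not FE and SE sows. In female set 1, limma called 3534 probes positive (8.07%) and 2456 negative (5.61%). In set 2 it called 4121 positive (9.42%) and 3305 negative (7.55%), and in set 3 it called 4797 positive (11%) and 6337 negative (14.5%). Ratios over 2-fold numbered 680 positive and 94 negative in set 1, 611 and 245 in set 2, and 655 and 1014 in set 3. Set 3 alone had more negative than positive ones.

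The calls of different sets often had opposite signs. Of 2666 probes called in both set 1 and set 2 (44.5% of the calls of set 1 and 35.9% of those of set 2), 1029 had opposite signs. For sets 1 and 3 it was 1581 of 3527, and for sets 2 and 3 it was 2615 of 4192, more than those that shared a sign. Over all probes, Pearson's r was 0.10 between sets 1 and 2, 0.09 between sets 1 and 3 and -0.08 between sets 2 and 3, where probes are not independent. Between a female and a male set r ran from -0.11 for female set 2 and male set 3 to 0.50 for female set 2 and male set 2. At least 1 female set called 15863 probes, and exactly 1 set called 8874. All 3 sets called 1698 probes, and 441 of these (1.01% of all probes) had 1 sign. Among the 1698, a shared sign was thus about as frequent as over all probes, where 24.4% had 1 sign in all 3 female sets.

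**Figure D3:**
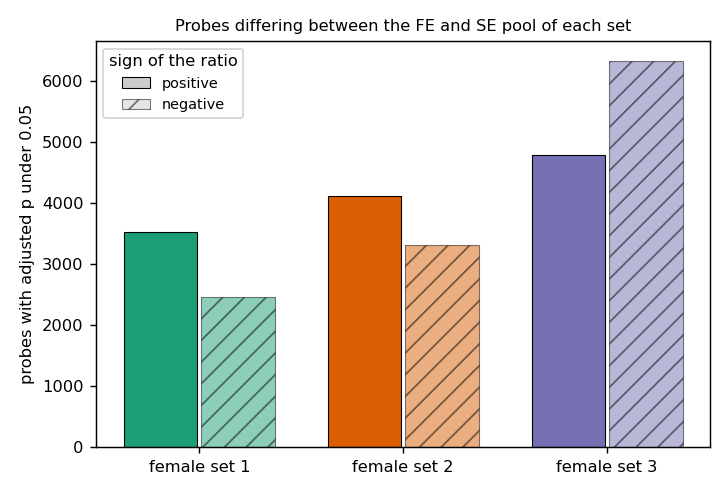
Number of probes (y axis) with a limma adjusted p under 0.05 between the FE and the SE pool of each female set (x axis), positive ratios plain and negative ratios hatched. Set 3 has 4797 positive and 6337 negative probes, the most of the 3 sets.

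**Figure D4:**
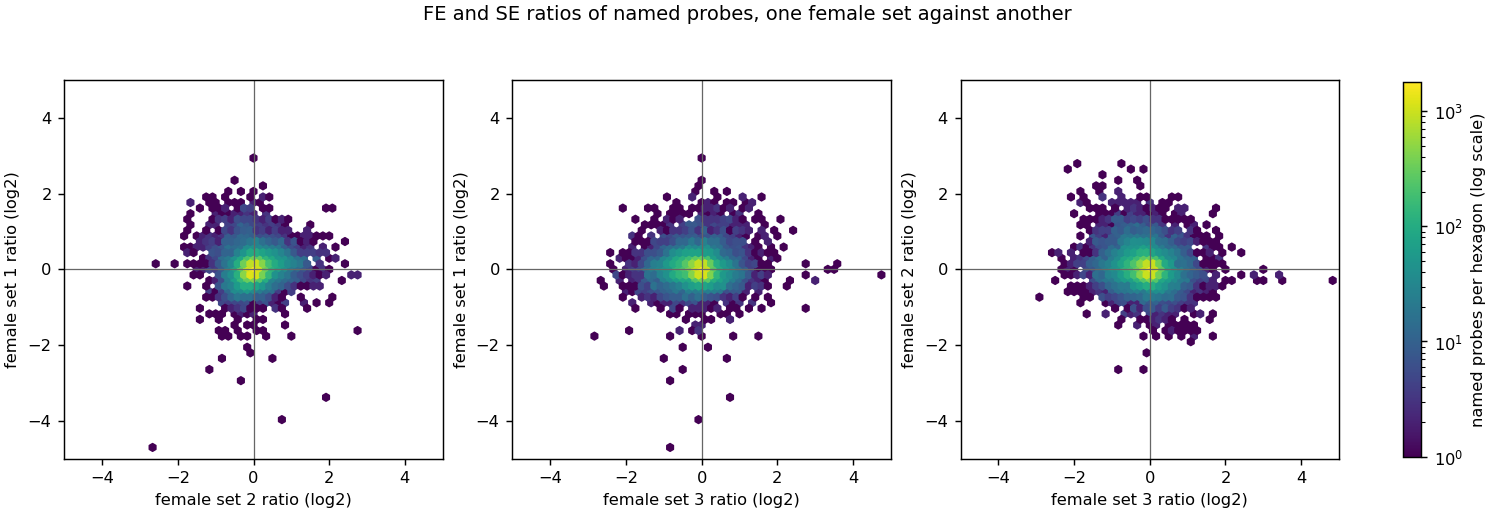
Ratios of the FE and SE pools (log2) of the 18110 named probes, 1 female set against another in each panel; colour gives the number of probes per hexagon on a log scale. The clouds have no clear slope, with r over all probes of 0.10, 0.09 and -0.08.

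The 441 probes included 171 named ones of 155 genes, 44 positive and 111 negative by gene. Folding in the endoplasmic reticulum held 4 of them, all negative, among 48 probes, in AGR2, ERP44 and SEC61A1. The citric acid cycle held 3 positive ones among 30 probes, in CS and SUCLG2. Splicing factors held 4 positive and 2 negative ones among 79 probes, including SRSF4 (0.46, 0.45 and 0.52) and HNRNPA3 (-0.48, -0.77 and -1.32 at 1 of its 3 probes), both of which act on messenger RNA. These are shares of 8.33%, 10% and 7.59%, where 0.944% of all named probes were called so. They are the highest shares of any list, so they are not typical of the lists. Every list with at least 1 such probe lay above 0.944%, from 1.49% for the proteasome, and translation factors had 6.41%. These lists also had more probes called between the female sets, with 75.0%, 73.3% and 70.9%, against 33.5% of all named probes.

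Differences between the 3 female sets were called by limma's moderated F for 12960 probes (29.6%), 6068 of them named, in 4253 genes. The 2 sets on the same slide already differed, since set 2 minus set 1 was positive for 2877 probes (6.57%) and negative for 3002 (6.86%), with 1750 of these over 2-fold. Set 3 minus the mean of sets 1 and 2 was positive for 4424 probes (10.1%) and negative for 6546 (15%), with 2575 over 2-fold. Set 3 was on another slide, so pools and slide cannot be told apart in that contrast, whereas both arrays of sets 1 and 2 shared a slide. Among named probes the share called by F was 33.5%.

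The gene with the largest F, LOC100157017, had -3.37 in set 1, 1.93 in set 2 and 0.71 in set 3, each with a standard error of 0.10, and set 1 was lowest at its 2 other probes too. KCNE3, a regulatory subunit of potassium channels, had -4.04, 0.77 and -0.08 at 1 probe but 0.01, 0.09 and -0.12 at the other. PLA2G7, which breaks down platelet-activating factor, had -2.27, 0.51 and 0.68 at 1 probe, while its 2 others stayed between -0.09 and 0.45. Set 1 stood apart at the leading probe of all 3 genes, but for KCNE3 and PLA2G7 no other probe showed this. DUSP5, a phosphatase induced by FGF signalling that switches off MAP kinase, had -0.88, 1.74 and -1.83 at 1 probe and 0.02, 0.13 and -0.76 at the other, and FN1, the matrix protein fibronectin, had -0.26, 2.38 and -0.82 at 1 of its 5 probes, with a median of -0.01 at the others. At these probes of DUSP5 and FN1 set 2 was the high one.

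In other genes of large F set 3 was the low one. CALR, the chaperone calreticulin, had 1.58, 0.47 and -2.14, and set 3 was also lowest at its 2 other probes, with -0.75 and -1.44. RPN2, a subunit of the enzyme that attaches glycans, had 0.49, 1.55 and -1.97 at 1 probe but -0.48, 1.08 and 0.06 at the other. PSAP, the precursor of lysosomal saposins, had 1.57, 2.02 and -1.40, with -1.26 and -1.23 in set 3 at its 2 other probes. The probes of CALR and PSAP thus shared the low set 3, and those of RPN2 did not. NPM1, a nucleolar protein of ribosome assembly, had 0.74, 1.03 and -1.61 at 1 probe and -0.02, 0.91 and 0.31 at the other. CAPNS1, the small calpain subunit, had 0.58, 1.83 and -1.80 at 1 probe and 0.29, 1.39 and -0.71 at the other. All 15 genes of largest F had limma adjusted p of 6.76e-08 or less between sets.

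**Figure D5:**
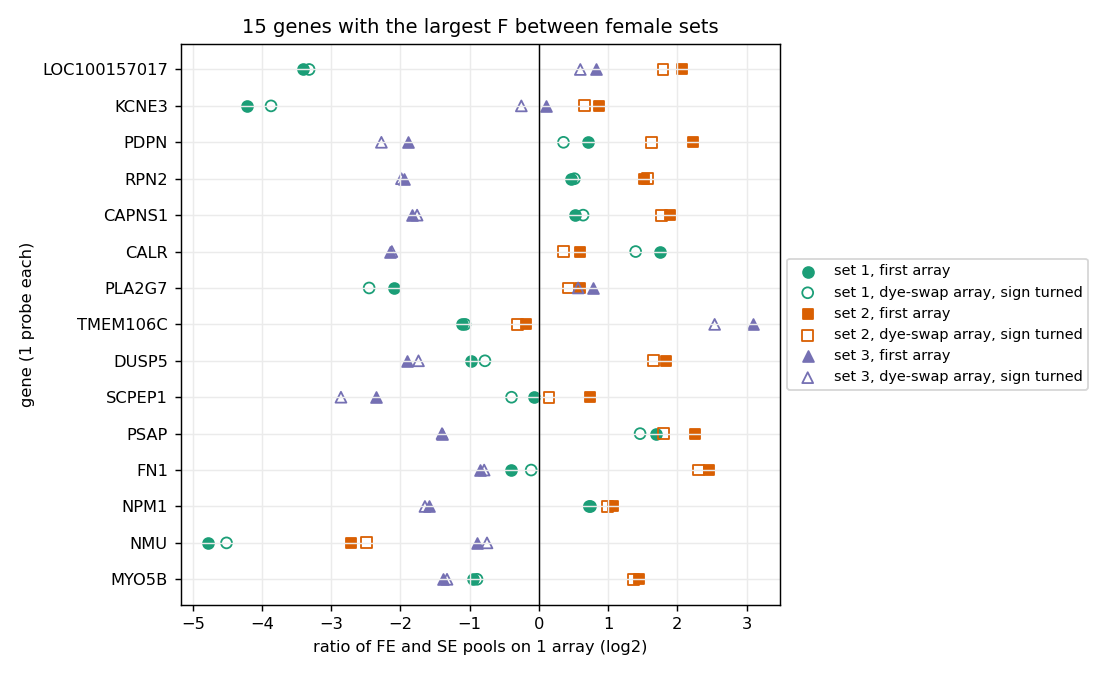
Ratios of the FE and SE pools (log2, x axis) on each of the 6 female arrays for the 15 genes with the largest F between female sets (y axis), filled symbols for first arrays and open symbols for dye-swap arrays with the sign turned. The 2 arrays of a set lie near each other and at least 1 set lies apart, as for KCNE3 with set ratios of -4.04, 0.77 and -0.08.

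On the list of conceptus signalling and steroid synthesis, 15 of 41 probes (36.6%) were called between sets, close to the 33.5% of all named probes. IL1B2, the interleukin 1 beta gene that pig embryos express, had -0.19, 2.64 and -2.17 in female sets 1, 2 and 3, with a standard error of 0.16. IL1B had -1.53, 2.73 and -1.93. Set 2 was thus high for both interleukin genes. The 2 genes are close copies of each other, so which of them each probe measured is uncertain. PTGS2, which makes prostaglandins, had -0.28, -0.19 and -0.90, with arrays of -0.79 and 0.42 in set 2, and did not pass the test between sets. On the list of FGF and MAP kinase signalling, FOS, an early-response transcription factor, had -2.88, -0.29 and -0.80.

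Within slide 2, the genes with the largest positive difference of set 2 over set 1 included STARD10, a lipid transfer protein (2.05 in set 2 and -0.79 in set 1), and CTSZ, a lysosomal protease (2.76 and -0.12). Those with the largest negative difference included SECISBP2, needed for selenoprotein synthesis (-1.75 in set 2 and 1.77 in set 1), ABCA1, which exports cholesterol (-1.25 and 1.81), PTBP3, a splicing regulator (-1.35 and 1.64), and ITSN1, of endocytosis (-1.08 and 1.83). These are single probes. The other probes of STARD10, CTSZ and ITSN1 had a difference of the same sign, as had 5 of the 6 others of SECISBP2, whereas the 2 others of PTBP3 stayed between 0.07 and 0.47 in both sets. PDPN, the membrane glycoprotein podoplanin, appeared on both sides. Its probe 35699 had 0.53, 1.92 and -2.08 in sets 1, 2 and 3 and its probe 27314 had 1.90, -1.20 and 1.63, so set 2 was the highest of the 3 at one probe and the lowest at the other.

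A ratio of over 3 in female set 3 was found for 4 named genes, each near 0 in sets 1 and 2. GRID1, a glutamate receptor subunit, had 4.76 in set 3, against -0.06 in set 1 and -0.32 in set 2. CREB3L2, a transcription factor of the secretory pathway, had 3.57, TARDBP, an RNA-binding protein, 3.46, and NEBL, an actin-binding protein, 3.39 in set 3. On the arrays of set 1 TARDBP had 1.47 and -1.40 and NEBL -1.17 and 1.18, so the means of 0.04 and 0.00 there rest on arrays that disagreed. The other 2 probes of NEBL had a median of -0.001.

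Lists differed in how many of their probes varied between the female sets. The shares called by F were 84.0% for housekeeping genes (21 of 25), 76.0% for heat shock proteins and chaperonins (38 of 50), 75.0% for folding in the endoplasmic reticulum (36 of 48), 70.6% for lysosomal proteins (24 of 34) and 68.8% for oxidative phosphorylation (53 of 77), against 33.5% of all named probes. They were 11.1% for blood cell markers (2 of 18), 12.5% for uterine epithelium markers (2 of 16) and 28.1% for genes of chromosome X (179 of 636). Lysosomal proteins had 21 positive calls and 1 negative call in set 2 but 3 positive and 19 negative ones in set 3. All named probes leaned the same way, with 2084 positive and 1448 negative calls in set 2 and 1815 positive and 3373 negative in set 3. HEXA, a lysosomal hexosaminidase, had gene means over 5 probes of 0.23, 1.26 and -1.42, and CTSB, a cathepsin, had -0.06, 1.42 and -1.02. Hypoblast markers showed the same split, with 12 positive and 0 negative calls in set 2 and 1 positive and 13 negative in set 3, and so did trophectoderm markers, with 13 positive and 3 negative in set 2 and 4 positive and 16 negative in set 3. Among the hypoblast markers, APOE, a lipid carrier, had gene means of 0.13, 1.60 and -0.58. Among the chaperonins, set 3 had both signs, with gene means of -1.53 for CCT7 and -0.32 for TCP1 but 0.58 for CCT4 and 0.23 for CCT2. Signal strength, which the deposited ratios do not hold, was not analysed here.

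Probes of the same gene agreed in part. Over 1781 genes with exactly 2 probes, r between the probes was 0.36 in set 1, 0.42 in set 2 and 0.34 in set 3. Of these genes, 396 had both probes called between sets, and in 310 of them the 2 probes were positively correlated over the 3 sets. A correlation over 3 points takes either sign easily, and the share over all 1781 genes was not counted.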

How the data were processed

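The authors deposited log ratios of 2-colour Agilent arrays, read here as log2 because of their range. How they were normalized, to which log base, and with which channel as numerator is not given in the sources used here. The labels name Cy3 for FE on every array, yet call 1 array per set a dye swap. Because the 2 arrays of a set were negatively correlated, the dye-swap signs were turned. Of 43794 probes, 25 without a value on all 12 arrays were left out. Gene symbols came from the platform annotation, with 363 updated. Set means of 6 sets were fitted with limma 3.58.1 (R 4.3.3), with 1 mean per sex, and differences between female sets with all 12 arrays and a term for the array's role. P-values were adjusted by Benjamini-Hochberg over 43769 probes, with a threshold of 0.05.

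Named genes were the 20 of smallest p in the female sets, the 8 per sign with the largest smallest ratio, the 10 of smallest p for female minus male, the 15 of largest F between female sets, the 5 per sign with the largest set differences, and, in each gene list, the 2 of smallest p and the 2 of largest F. Other list members were named after their values were seen. The members, rules and 36 lists were chosen with earlier results of these data known, and chromosome X was added as a list. In simulated data for the female ratio, log2 changes of 0.5, 1 and 2 were recovered in 18%, 64% and 92% of 50 probes each. In the real data, 136 probes had a mean over 2-fold with 1 sign in all 3 female sets, and 0 were called. The simulated shares therefore do not say how many such differences the test would find here. The alternatives were other array weightings, filters and scalings, each set left out, and blocks for slide and set number. Whether a set number joins the same sows in both sexes is not given in the sources used here. Same-numbered female and male sets deviated with r of 0.05, 0.41 and 0.26, and the other pairs with r from -0.35 to 0.06. The numbers were not taken as pairs in the main fit.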

Additional observations from a re-analysis of the deposited data

Results flagged for a closer look

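The list of housekeeping genes had a positive median ratio in all 3 female sets (0.004, 0.25 and 0.08) and a negative one in all 3 male sets (-0.09, -0.03 and -0.17). Over genes, the median of the mean female ratio was 0.0809. It is given because each female set lay on one side of 0 and each male set on the other. The sign of the female sets depended on the array read, since the medians were 0.09, 0.21 and 0.15 on the first arrays of sets 1, 2 and 3 but -0.24, 0.11 and -0.05 on the turned swap arrays, and the median over genes was -0.06 on the dye-swap arrays alone. The difference between the sexes was not tested.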

How the results depend on the processing

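The test of the female ratio gave 0 probes with limma under nearly all alternatives, including each set left out, the 3 female sets alone, gene means and a slide block. It gave 1 probe on dye-swap arrays alone and 6824 with signs not turned, and 571 probes passed at unadjusted p and 1.5-fold, against 244 for female minus male. With a replicate block on the set numbers it called 0 probes. For female minus male this block also called 0 probes with limma, with a smallest adjusted p of 0.831. There 1377 probes had an unadjusted p under 0.05, against 819 without the block. Without female set 2, limma called 0 probes for female minus male, with a smallest adjusted p of 0.502, and 1459 had an unadjusted p under 0.05. A fixed block for slide leaves slide 3 alone, with 1 set of each sex, to compare the sexes, so no count is given for it. Differences between female sets were called for 7038 probes without the role term, 6399 among named probes alone and 5020 with 2-fold as well, and for 5879 to 10678 with 1 set left out, against 12960. For set 2 minus set 1 the counts were 2518, 2840 and 1750, against 5879, and for set 3 minus sets 1 and 2 they were 5987, 5606 and 2575, against 10970. Of 39 named genes, 37 kept their sign on dye-swap arrays alone; ATP5G3 turned to -0.32 and SLC25A3 to -0.30, and the cause was not tested. All 39 kept it on first arrays alone, after scaling and with each female set left out. These genes were chosen for a small p or for 1 sign in all 3 female sets. Where the sets share a sign, leaving 1 out cannot turn the mean, so this is no test of stability. The deposited ratios hold no signal over background, so precision rests on 3 sets of 2 arrays.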

Other observations

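Probe 1890, which carries no gene symbol, shared the smallest limma adjusted p of the female sets (0.408) with MAN2C1. Its ratios were 0.76, 0.91 and 0.96 in the female sets and 0.84, 0.83 and 0.87 in the male sets, so all 6 sets lay close together. For MAN2C1 the male sets had 0.99, 1.00 and 0.93, also close to the female ones. GSTM3 had -1.35, -1.43 and -1.70 in the male sets. Of the 20 genes of smallest p in the female sets, 10 had the same sign in all 3 male sets and 2 had the other sign in all 3. The share over all probes was not counted. The p that chose these probes used the spread of the male sets too, which favours probes whose male sets lie close together.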
